A study of Mus musculus with 14 samples.

Results

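The chemokine system of the mouse testis was followed here through 49 genes: 20 CC, 13 CXC and 1 CX3C ligand genes and 11 CC, 3 CXC and 1 CX3C receptor genes. They are the genes whose name on the array begins with Ccl, Ccr, Cxcl or Cxcr and a number, or with Cx3c, out of 27962 gene names on the array. They are covered by 64 probes, and for the 14 genes with several probes the brightest probe over the groups was used and the others were compared with it. Some names on the array are old: Cxcl4 is now Pf4, Cxcl7 is Ppbp and Ccl27 is Ccl27a. The samples were total RNA of whole testis from C57BL/6 mice, labelled in 1 colour and hybridized to Agilent whole-genome arrays of 60-base probes. Pups had stayed with their mother and received no treatment. The groups were 4 wild-type (WT) and 4 Glis3KO2 samples at 1 week of age, and 3 WT and 3 Glis3KO2 samples at 4 weeks. Glis3 encodes a Krüppel-like zinc finger transcription factor, and the labels do not say which part of the gene Glis3KO2 lacks or in which cells. The labels of the older samples give 4 weeks and the series description gives 3 weeks; the sample labels are followed. Nothing in the labels says that samples of a group are separate animals, so p-values measure the spread between these samples, which may be technical.

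Chemokines are small secreted proteins, and in the case of Cx3cl1 and Cxcl16 membrane-bound ones, that steer the movement of cells through receptors of the G protein-coupled family. Most act on leukocytes, and a receptor often answers to several ligands. In the testis the interstitium holds resident macrophages, and Cxcl12 of somatic cells and its receptor Cxcr4 on spermatogonia are known for their part in keeping germ cells in their niche.

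Levels are given on the log2 scale against each array's own 75th percentile of signal, so that a difference of 1 is a doubling. Levels of different probes are not compared, because probes differ in brightness. A gene entered the test of a comparison if 3 or more arrays of 1 of its groups showed the probe well above background, and it was called when the adjusted p of limma, adjusted by Benjamini-Hochberg over all genes tested, was under 0.05. Each array had 43379 non-control spots, of which the scanner software put 74.3% to 86.6% well above background, and precision is set by how few arrays there are. Glis3 itself was at -4.87 ± 0.18 (SD, n = 4) in 1-week WT and at background on 4 of 4 1-week Glis3KO2 arrays, at least 4.25-fold lower (limma adjusted p = 0.0058), with no call under normexp background correction (-0.46, limma adjusted p = 0.205); whether its probe lies in the part that was disrupted is not known. At 4 weeks Glis3 was above background on no array of either genotype. The 1-week arrays lie on slides 1 to 3 and the 4-week arrays on slides 4 and 5, so slide and age cannot be told apart. Slide 3 holds 1-week Glis3KO2 replicate 4 and no other array, and its scan day differs too. The share of spots above background was 82.6% to 86.6% on 1-week WT replicates 1 to 3, 76.7% on WT replicate 4 and 74.3% to 78.5% on the 1-week Glis3KO2 arrays, so detection moved with genotype at this age and its part in the results was not tested. Counts at 1 week are also given without both arrays numbered 4.

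Of the 49 genes 40 were above background on at least 3 arrays of 1 or more groups. The other 9 were the ligands Ccl20, Ccl22, Cxcl2, Cxcl5, Cxcl7, Cxcl11 and Cxcl15 and the receptors Ccr1 and Ccr8. Cxcl2 and Cxcl5, which attract neutrophils, and Ccl22, a ligand of Ccr4, were each above background on 1 array of the 14, and in each case this was a 4-week WT array. Ccl22 was at -4.22 on WT replicate 2, against -9.58 to -7.19 on the other 13 arrays. Cxcl5 was at -3.72 on WT replicate 3, against -9.62 to -8.79 elsewhere. Cxcl2 was at -5.67 on WT replicate 1, against -9.61 to -8.04 elsewhere. No probe of these genes was saturated. Fewer cells of a type and less RNA per cell cannot be told apart in RNA of a whole tissue, here and in every comparison below.

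**Figure D1:**
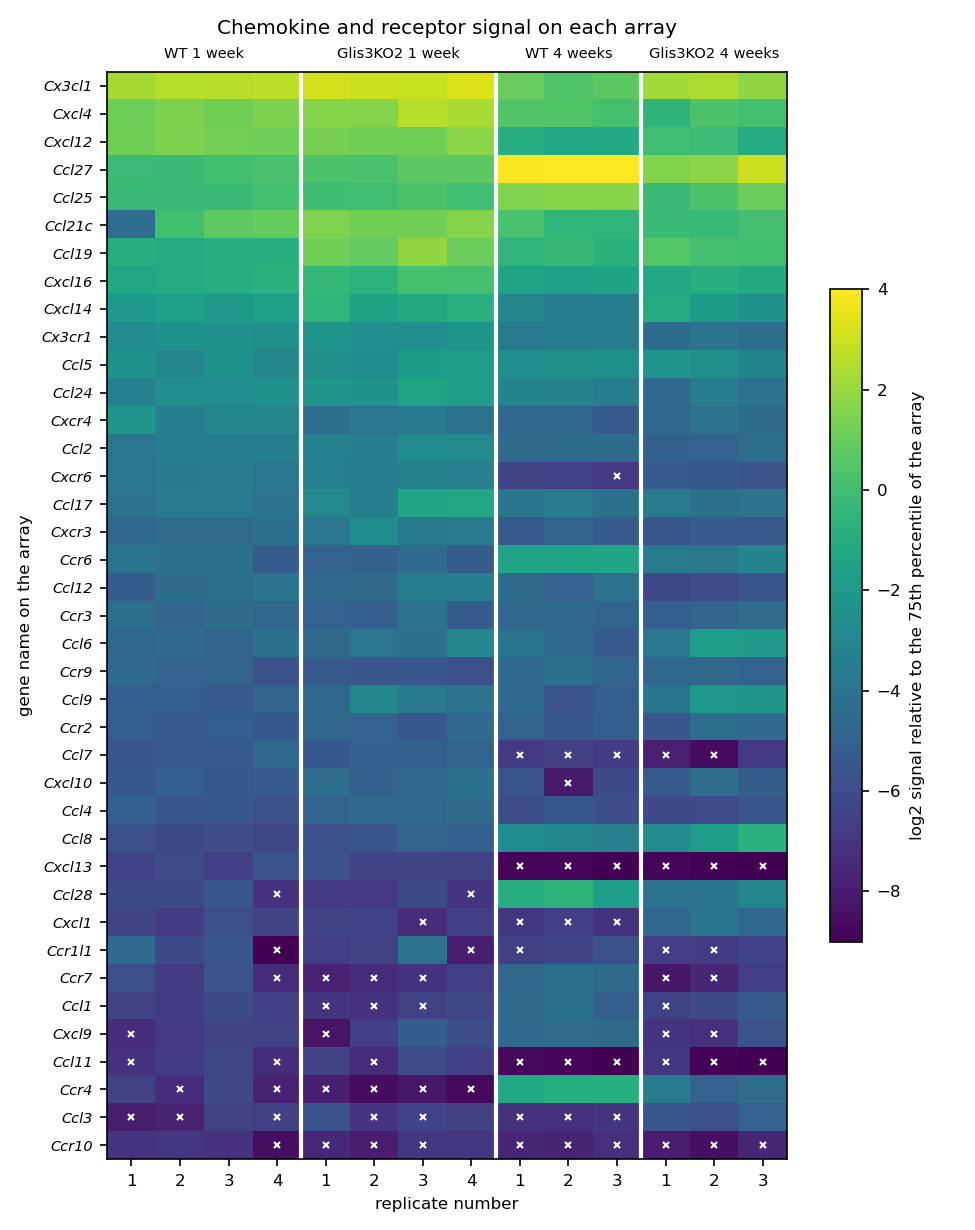
Log2 signal relative to the 75th percentile of the array for the genes above background on at least 3 arrays of a group, except 1 that is not reported here, 1 row per gene and 1 column per array, with white crosses on spots not well above background and rows ordered by the 1-week WT mean. Ccr4, Ccr6, Ccl27 and Ccl28 are higher on the 3 4-week WT arrays than on the arrays of each other group, and Cxcl13 is at background on the 6 4-week arrays.

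The first comparison asks which chemokine and receptor genes differed in the young testis. At 1 week 38 of the 49 genes were tested, and 5 were higher and 1 was lower in Glis3KO2, or 15.8% of those tested. Of all 22678 genes tested 10.0% were called, 3.90% as higher and 6.14% as lower. The 5 that rose were the ligands Ccl19, Ccl4, Cxcl10 and Cxcl16 and the receptor Cxcr6, and the 1 that fell was Cxcr4. The median difference of the 38 was 0.43, with 29 above 0 and 9 below, against -0.07 over all genes tested, 0.23 over the brightest 25% of them and -0.61 over the dimmest 25%. With median scaling, which moved the median of all genes from -0.07 to 0.19, 15 of these genes rose and 0 fell; the split was 11 and 0 with quantile normalization and 6 and 0 with normexp background correction. Over all genes the split of 885 higher and 1392 lower became 2886 and 1013 with median scaling.

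Ccl19, which guides dendritic cells and T cells to lymph nodes through Ccr7, was at -0.78, -1.05, -0.78 and -0.80 on the WT arrays and at 1.16, 0.87, 1.86 and 1.03 on the Glis3KO2 arrays. All Glis3KO2 arrays lay above all WT arrays, and the difference was 2.08 (SE 0.22, limma adjusted p = 0.0034). Its probe, however, matches the telomeric repeat CCCTAA with a score of 8, where 7 or more counts as a match. The other Ccl19 probe, with a score of 4, gave a difference of 0.55 (limma adjusted p = 0.127), so the call rests on the probe that was used. Ccl19 also has near-identical gene copies in this strain, which the probe may not tell apart.

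Cxcl16 is a membrane-bound ligand and Cxcr6 is its receptor, found on T cells and other lymphocytes, and both rose at 1 week. Cxcl16 was at -1.28, -1.05, -0.88 and -0.70 in WT and at -0.36, -0.58, 0.23 and 0.15 in Glis3KO2. The difference was 0.84 (SE 0.22, limma adjusted p = 0.0486), and a second probe gave 0.49. Cxcr6 was at -3.89, -3.76, -3.65 and -3.91 in WT and at -3.28, -3.52, -3.19 and -3.33 in Glis3KO2. The groups did not overlap, and the difference was small, 0.47 (SE 0.12, limma adjusted p = 0.0461).

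Ccl4, a ligand made by activated leukocytes, was at -4.94, -5.50, -5.43 and -5.76 in WT and at -4.88, -4.60, -4.58 and -4.39 in Glis3KO2. WT replicate 1 lay just below the lowest Glis3KO2 array, and the difference was 0.79 (SE 0.19, limma adjusted p = 0.043). Cxcl10, an interferon-induced ligand of Cxcr3, was at -5.40, -5.13, -5.44 and -5.25 in WT and at -4.37, -5.01, -4.70 and -4.24 in Glis3KO2, a difference of 0.73 (SE 0.18, limma adjusted p = 0.0461). Glis3KO2 replicate 2 lay just above the highest WT array. Cxcr4, the receptor of Cxcl12, was at -2.20, -3.45, -3.03 and -3.10 in WT and at -4.29, -3.89, -3.75 and -4.14 in Glis3KO2. It was lower on every Glis3KO2 array, with a difference of -1.07 (SE 0.26, limma adjusted p = 0.0448). The Cxcr4 probe has a repeat score of 7, and the other probe, with a score of 4, gave -0.58, with no call when repeat-matching probes were left out.

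**Figure D2:**
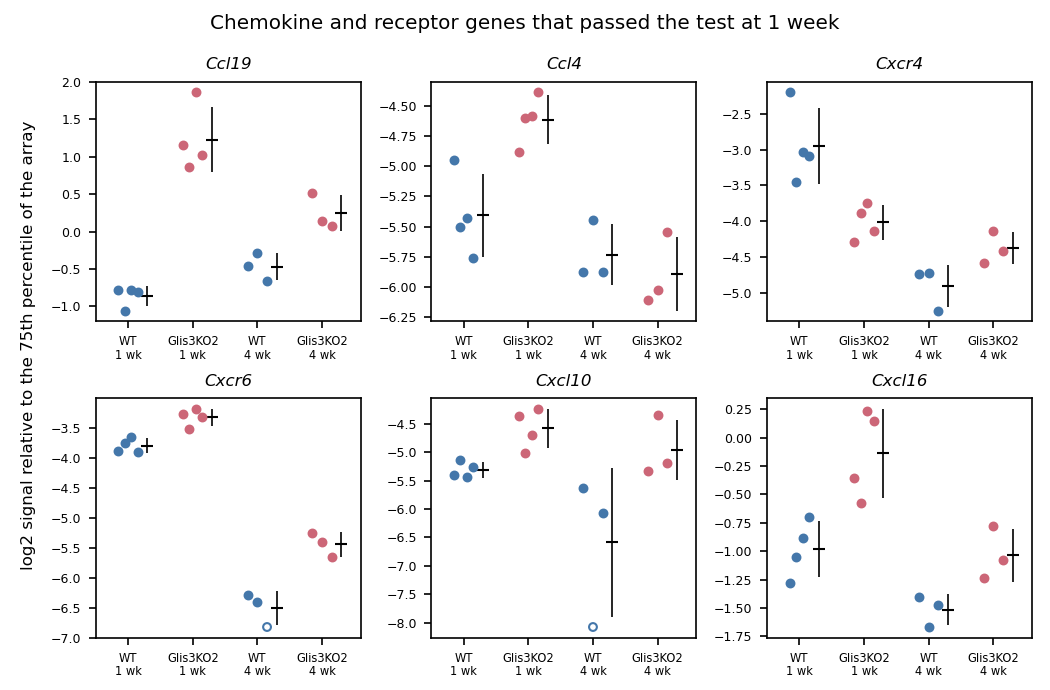
Log2 signal relative to the 75th percentile of the array for the 6 genes called at 1 week, 1 point per array in all 4 groups (blue WT, red Glis3KO2), open where the spot was not well above background, with the mean and SD in black. At 1 week the Glis3KO2 points of Ccl19 lie between 0.87 and 1.86 and the WT points between -1.05 and -0.78. The WT and Glis3KO2 points of Ccl4, Cxcl10, Cxcl16 and Cxcr6 nearly meet at that age.

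Except for Ccl19 these calls lay close to the threshold. Just past it on the other side were the myeloid ligand Ccl9 (1.17, limma adjusted p = 0.0518), Cxcl14 (0.87, limma adjusted p = 0.0521) and Cx3cl1 (0.54, limma adjusted p = 0.0521). So were the chemokine receptor Cxcr3 (0.91, limma adjusted p = 0.0574) and the Ccr4 ligand Ccl17 (1.66, limma adjusted p = 0.0614). With slide as a block, and likewise without both arrays numbered 4, Ccl19 alone was called. On slide 1, with 2 arrays of each genotype, the differences were 2.29 for Ccl19, 1.02 for Cxcl16, 0.89 for Cxcl10, 0.54 for Cxcr6, 0.45 for Ccl4 and -1.40 for Cxcr4. On slide 2, with 2 WT arrays and 1 Glis3KO2 array, they were 1.80, 0.30, 0.19, 0.32, 1.03 and -0.62 in the same order.

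The number called at 1 week also turned on single arrays. It was 1 without WT replicate 2, without WT replicate 3 or without Glis3KO2 replicate 4. It was 2 without WT replicate 1, Glis3KO2 replicate 1 or Glis3KO2 replicate 3, 6 without WT replicate 4 and 9 without Glis3KO2 replicate 2. Without WT replicate 4 the receptors Ccr6 and Ccr9 were called as lower beside Cxcr4. Ccl21c, another Ccr7 ligand, showed how 1 array can set a difference: it was at -4.34 on WT replicate 1, against 0.09 to 0.92 on the other WT arrays and 1.23 to 1.61 in Glis3KO2, and its difference of 2.02 (SE 1.08) did not pass (limma adjusted p = 0.206). The remaining genes at 1 week differed by -0.78 (Ccr7) to 0.80 (Ccl24) and did not pass.

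The second comparison asks which of these genes differed at 4 weeks, when meiotic and post-meiotic germ cells fill much of the WT testis. Ligands and receptors moved both ways in Glis3KO2. The Ccr4, Ccr6 and Ccr7 receptors and the ligands Ccl27 and Ccl28 fell, and the ligands Cxcl1, Ccl3, Ccl9, Ccl6, Cxcl14 and Cx3cl1 rose. Of 35 genes tested 10 rose and 11 fell, or 60%, where 69.2% of all 21335 genes tested were called, 35.1% as higher and 34.1% as lower. The share called was thus below that of all genes at this age. The median difference was -0.09, against 0.03 over all genes tested. By class, 5 of 16 tested CC ligands rose and 6 fell, 3 of 7 CXC ligands rose and 1 fell, 0 of 7 CC receptors rose and 3 fell, and 1 of 3 CXC receptors rose and 0 fell.

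**Figure D3:**
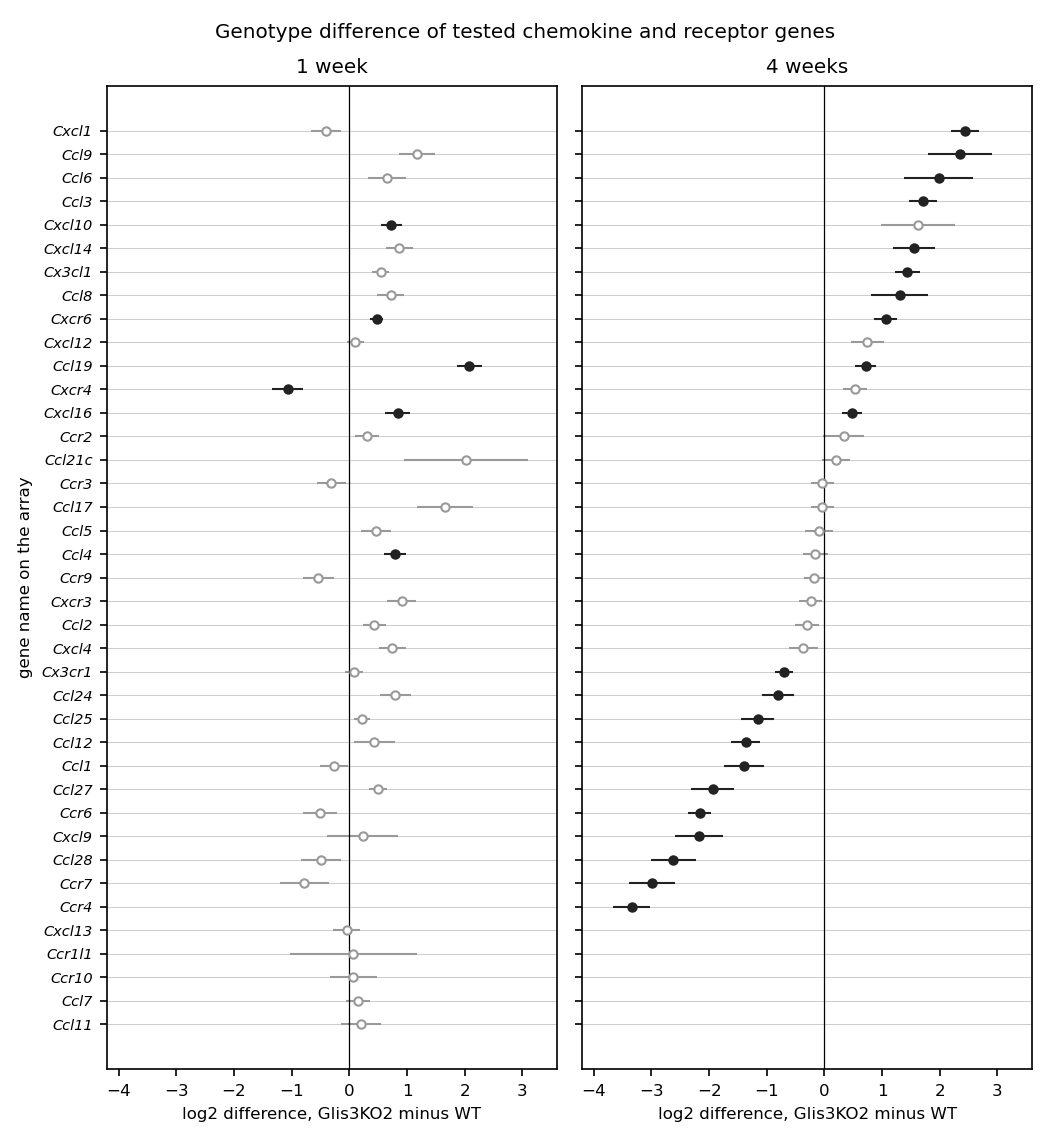
Log2 difference, Glis3KO2 minus WT, with its SE, for the genes tested, except 1 that is not reported here, at 1 week (left, n = 4 and 4) and at 4 weeks (right, n = 3 and 3), filled black where the gene was called and open grey where it was not. The differences at 4 weeks run from -3.34 for Ccr4 to 2.44 for Cxcl1, and those at 1 week from -1.07 for Cxcr4 to 2.08 for Ccl19.

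Among the receptors, Ccr4 fell most. Ccr4 is the receptor of Ccl17 and Ccl22 and is known from helper and regulatory T cells. It was at -1.25, -0.88 and -0.79 in 4-week WT and at -3.68, -4.90 and -4.37 in Glis3KO2. Every Glis3KO2 array lay far below the lowest WT array, and the difference was -3.34 (SE 0.32, limma adjusted p = 0.00057), a 10.1-fold lower signal. A second probe gave -3.66. The difference was -3.27 on slide 4, with 2 arrays of each genotype, and -3.49 on slide 5, with 1 of each.

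Ccr6, the receptor of Ccl20, was at -1.42, -1.41 and -1.36 in WT and at -3.68, -3.83 and -3.16 in Glis3KO2, a difference of -2.16 (SE 0.20, limma adjusted p = 0.00056). The WT arrays lay very close together, and no Glis3KO2 array reached them. Ccr7, the receptor of Ccl19 and Ccl21, was at -4.70, -4.26 and -4.49 in WT and at -8.24, -7.60 and -6.59 in Glis3KO2, where it was above background on 1 of 3 arrays. Its difference was -2.99 (SE 0.40, limma adjusted p = 0.0011), and -0.68 (limma adjusted p = 0.0366) with normexp background correction, which adds an offset and so shrinks differences of dim probes. Cx3cr1, the receptor of Cx3cl1 and a marker of monocytes and some macrophages, was at -3.65, -3.47 and -3.57 in WT and at -4.42, -4.06 and -4.32 in Glis3KO2. Its difference was -0.71 (SE 0.16, limma adjusted p = 0.0059), and -0.81 on a second probe. The call was lost with normexp (-0.31, limma adjusted p = 0.171) and with the mean of both probes (-0.76, limma adjusted p = 0.0591).

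Cxcr6 was the receptor that rose. It was at -6.29, -6.41 and -6.82 in WT, with 2 of 3 arrays above background, and at -5.25, -5.41 and -5.66 in Glis3KO2. The difference was 1.06 (SE 0.20, limma adjusted p = 0.0031), and 0.55 with no call under normexp (limma adjusted p = 0.0825). The receptors Ccr2, Ccr3, Ccr9, Cxcr3 and Cxcr4 differed by -0.24 to 0.52 and did not pass. Cxcr4, the gene that fell at 1 week, had a difference of 0.52 here (SE 0.21, limma adjusted p = 0.0587), and 0.40 on its second probe. Its 95% interval of 0.03 to 1.02 does not reach the value of -1.07 seen at 1 week.

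Among the CC ligands that fell, Ccl28 and Ccl27, both ligands of Ccr10 made by epithelia, changed most. Ccl28 was at -0.90, -0.55 and -1.72 in WT and at -4.04, -3.95 and -3.03 in Glis3KO2, a difference of -2.62 (SE 0.39, limma adjusted p = 0.0014). Ccl27 was at 3.94, 4.14 and 4.02 in WT and at 1.55, 1.75 and 2.98 in Glis3KO2, a difference of -1.94 (SE 0.37, limma adjusted p = 0.0033). Glis3KO2 replicate 3 lay closest to WT in both, and the Ccl27 difference was -2.33 on slide 4 and -1.16 on slide 5, which holds that array. Ccl27 lies in a stretch of repeated copies on chromosome 4, and the probe may read more than 1 copy. Their receptor Ccr10 was above background on 0 of 6 arrays at 4 weeks.

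Ccl12, a monocyte attractant, was at -4.41, -4.89 and -4.17 in WT and at -6.13, -5.90 and -5.54 in Glis3KO2. The groups did not overlap, and the difference was -1.37 (SE 0.24, limma adjusted p = 0.0026). The call was lost with normexp (-0.39, limma adjusted p = 0.147), and its probe has a repeat score of 7. The ligands Ccl1 (-1.39, limma adjusted p = 0.0101), Ccl25 (-1.16, limma adjusted p = 0.0106) and the eotaxin Ccl24 (-0.81, limma adjusted p = 0.0334) also fell. A second Ccl24 probe gave -0.84, and the call of Ccl24 was lost in 7 of 17 alternatives, 5 of which left out a single array (all but Glis3KO2 replicate 2), with values of -1.09 to -0.41 over the alternatives. Ccl25, the ligand of Ccr9, has 3 probes, which gave -1.16, -0.95 and 0.69, so the direction of Ccl25 depends on the probe; with the mean of the 3 it was -0.47 (limma adjusted p = 0.0513). The call of Ccl1 was lost with normexp (-0.34, limma adjusted p = 0.248).

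Among the CC ligands that rose, Ccl3 was above background on 0 of 3 WT arrays and on 3 of 3 Glis3KO2 arrays. Ccl3 is made by activated macrophages and binds Ccr1. It was at -7.15, -7.22 and -7.04 in WT and at -5.52, -5.84 and -4.93 in Glis3KO2. It was at least 2.31-fold higher in Glis3KO2 (limma adjusted p = 0.0013), a bound taken against the dimmest signal that counts as above background on each array.

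Ccl9 and Ccl6, neighbours on chromosome 11 and both ligands of Ccr1 made by myeloid cells, varied more between arrays. Ccl9 was at -4.46, -5.67 and -5.06 in WT and at -3.93, -2.08 and -2.12 in Glis3KO2, a difference of 2.36 (SE 0.56, limma adjusted p = 0.008). Ccl6 was at -3.95, -4.45 and -5.24 in WT and at -3.88, -1.85 and -1.98 in Glis3KO2, a difference of 1.98 (SE 0.60, limma adjusted p = 0.0219). In both, Glis3KO2 replicate 1 was the lowest Glis3KO2 array, and in Ccl6 it lay just above the highest WT array. The call of Ccl6 was lost without WT replicate 2 (2.03), WT replicate 3 (1.63), Glis3KO2 replicate 2 (1.62) or Glis3KO2 replicate 3 (1.69), with limma adjusted p-values of 0.0522 to 0.0823. Ccl8 rose with overlapping groups: it was at -2.67, -3.05 and -3.34 in WT and at -2.72, -1.73 and -0.70 in Glis3KO2. Its difference was 1.30 (limma adjusted p = 0.0489), and 0.79 without Glis3KO2 replicate 3, 1.31 without replicate 2, and 1.15 to 1.48 without each WT array in turn, with no call in these 5 cases; the call was lost in 9 of 17 alternatives in all, the others being median scaling, quantile normalization, no filter and a replicate block. Ccl19 rose by 0.71 (limma adjusted p = 0.0115) and by 0.72 on its second probe, and its call was lost without WT replicate 3 (0.62, limma adjusted p = 0.0549).

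Cxcl1, a neutrophil attractant that binds Cxcr2, rose from background. It was at -6.88, -6.61 and -7.08 in WT, where no array put it above background, and at -4.62, -3.95 and -4.65 in Glis3KO2. The groups were well apart, and Cxcl1 was at least 4.66-fold higher in Glis3KO2 (fitted difference 2.44, SE 0.24, limma adjusted p = 0.00059). With normexp the difference was 1.10 (limma adjusted p = 0.0018). The Cxcl1 probe has a repeat score of 9, against TTAGGG, the other strand of the telomeric repeat, and the array has no second probe for it.

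Cx3cl1, or fractalkine, is a membrane-bound ligand. It was at 0.98, 0.41 and 0.71 in WT and at 2.20, 2.39 and 1.82 in Glis3KO2. The difference was 1.44 (SE 0.22, limma adjusted p = 0.0016), 1.45 on slide 4 and 1.41 on slide 5, and a second probe was at background on 3 of 3 WT arrays. At 1 week the probes of Cx3cl1 disagreed, with 0.54 on the first and -0.94 on the dimmer second one. Cxcl14, known from epithelia and stroma, was at -3.07, -3.44 and -3.49 in WT and at -0.99, -1.91 and -2.43 in Glis3KO2, a difference of 1.56 (SE 0.36, limma adjusted p = 0.0076). Cxcl16 rose by 0.48 (limma adjusted p = 0.0426) and by 0.62 on its second probe, and 9 of 17 alternatives ended its call, among them leaving out Glis3KO2 replicate 2 (0.35) or any 1 WT array (0.41 to 0.54).

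Cxcl9 was the CXC ligand that fell. Cxcl9 and Cxcl10 lie side by side on chromosome 5, both are induced by interferon, and both bind Cxcr3. Cxcl9 was at -4.54, -4.36 and -4.50 in WT and at -7.00, -7.27 and -5.65 in Glis3KO2, where it was above background on 1 of 3 arrays. The difference was -2.17 (SE 0.41, limma adjusted p = 0.0031), and -0.53 with no call under normexp (limma adjusted p = 0.0812). Cxcl10 was at -5.62, -8.08 and -6.06 in WT and at -5.34, -4.35 and -5.18 in Glis3KO2, a difference of 1.63 (SE 0.64) that did not pass (limma adjusted p = 0.0571). WT replicate 2 was not above background for Cxcl10.

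Cxcl12, the ligand of Cxcr4, had a difference of 0.75 (SE 0.28) that also just missed the threshold (limma adjusted p = 0.0515), with 1.35 on a second probe; 8 of 17 alternatives called it as higher, among them slide as a block and leaving out Glis3KO2 replicate 3. The remaining ligands tested, Ccl2, Ccl4, Ccl5, Ccl17, Ccl21c and Cxcl4, differed by -0.37 to 0.20 and did not pass. Cxcr3 (-0.24) likewise did not pass. With slide as a block the count was 12 higher and 11 lower.

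**Figure D4:**
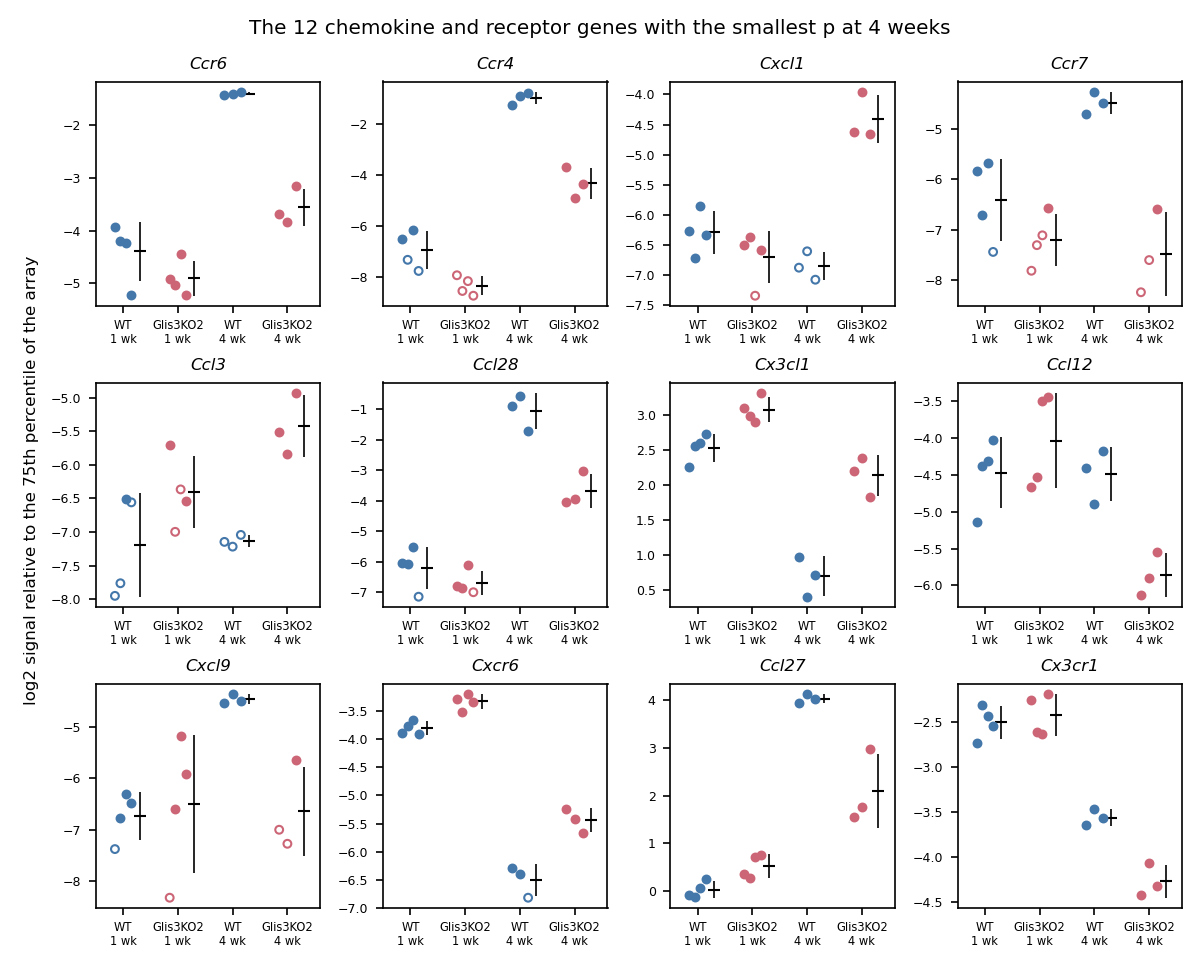
Log2 signal relative to the 75th percentile of the array for the 12 genes with the smallest p at 4 weeks, 1 point per array in all 4 groups (blue WT, red Glis3KO2), open where the spot was not well above background, with the mean and SD in black and an axis of its own for each gene. Ccr4, Ccr6, Ccl27 and Ccl28 are highest in 4-week WT and lie in 4-week Glis3KO2 between 4-week WT and the 1-week groups, while Cxcl1 is highest in 4-week Glis3KO2.

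The sequences before the starts of some of these genes are shown because ligands of the chemokine family are textbook targets of NF-kB and interferon signalling and because Glis proteins bind DNA. The RefSeq promoter table of build GRCm38.p6 holds 36 of the 49 genes. Ccl25 and Ccr6 have 2 windows each in it, Ccl27 has 3 and each of the others has 1. A gene counts below if any of its windows matches, while the percentages are shares of all windows. In the 250 bases before the start, on both strands, a match to the NF-kB motif was found in 7 genes (Ccl9, Ccl20, Ccr3, Ccr6, Cxcl1, Cxcl2 and Cxcl10), and in 3.9% of all 32851 windows. Of the 9 genes called as higher at 4 weeks that are in the table, Ccl9 and Cxcl1 held it, and of the 9 called as lower, Ccr6 held it. The interferon-stimulated response element (ISRE) was found in Ccl19, Cxcl10 and Cxcl14 (2.98% of windows), and TATAAA in 11 genes (12.4%). TGGGGGGT, the core letters of a Glis site, was found in Ccl20 and Cxcl1 (1.36%), TGACGT in Ccr1l1 and Cxcl1 (6.47%), and TGACGTCA in 0 genes (1.55%). The lines below give the 120 bases before the start of Cxcl1 (chr5:90891125-90891244, plus strand), Ccl9 (chr11:83578637-83578756, minus strand), Ccr6 (chr17:8242406-8242525, plus strand) and Ccr4 (chr9:114496545-114496664, minus strand), which rose or fell at 4 weeks, and 130 bases of Cxcl10 (chr5:92348980-92349109, minus strand), which rose at 1 week. Each is written 5′ to 3′ along the gene, with capitals on the letters that match the NF-kB motif, and in Ccl9 also TATAAA on both strands and in Cxcl10 also the ISRE; overlapping matches are joined.
Cxcl1: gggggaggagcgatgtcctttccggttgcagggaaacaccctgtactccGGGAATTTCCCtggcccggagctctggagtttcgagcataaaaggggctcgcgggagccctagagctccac
Ccl9: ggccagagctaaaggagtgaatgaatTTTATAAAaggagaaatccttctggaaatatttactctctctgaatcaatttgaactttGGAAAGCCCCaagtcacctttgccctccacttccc
Ccr6: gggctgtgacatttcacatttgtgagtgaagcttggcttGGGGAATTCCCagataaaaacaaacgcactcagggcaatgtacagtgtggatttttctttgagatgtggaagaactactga
Ccr4: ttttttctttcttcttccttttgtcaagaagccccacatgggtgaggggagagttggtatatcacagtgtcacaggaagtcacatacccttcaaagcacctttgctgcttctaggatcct
Cxcl10: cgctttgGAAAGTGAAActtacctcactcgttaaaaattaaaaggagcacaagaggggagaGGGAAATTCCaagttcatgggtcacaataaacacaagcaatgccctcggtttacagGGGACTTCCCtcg
Counted from the start, with -1 the base before it, the NF-kB matches begin at -71 in Cxcl1, -35 in Ccl9, -81 in Ccr6 and -159 and -103 in Cxcl10. Ccr4 holds none of the motifs searched in these 250 bases. A match says only that the letters are there, and both a gene that rose (Cxcl1) and a gene that fell (Ccr6) carry the same kind of match.

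The third comparison describes the same genes in WT between 1 and 4 weeks. On the probes used, Ccr4, Ccl28, Ccl27, Ccl8 and Ccr6 rose most. Among genes above background on arrays of both ages, Cxcr6, Cxcl12, Cxcr4 and Cx3cl1 fell most on those probes. Of 38 genes tested 10 were higher and 13 lower at 4 weeks, or 60.5%, against 81.0% of all 23682 genes tested, 31.3% as higher and 49.7% as lower. The median difference, 4 weeks minus 1 week, was -0.07, against -0.51 over all genes. All 3 CXC receptors and both CX3C genes were lower, and no CC receptor was.

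Ccr4 rose from -6.94 ± 0.73 (SD, n = 4) to -0.97 ± 0.25 (SD, n = 3), a difference of 5.96 (SE 0.39, limma adjusted p = 6.6e-06). At 1 week the first probe was above background on 2 of 4 WT arrays and the second on 0. Ccl28 rose by 5.15, Ccl27 by 4.00, Ccl8 by 3.02, Ccr6 by 3.00, Cxcl9 by 2.27, Ccr7 by 1.93, Ccl1 by 1.86 and Ccl25 by 1.72. Ccl19 rose by 0.39 (limma adjusted p = 0.0211), by 1.16 on its second probe, and lost its call without 4-week WT replicate 1 (0.38) or 2 (0.30). Of the 3 Ccl25 probes, those that fell with genotype at 4 weeks rose here by 1.72 and 1.09, and the third differed by -1.04.

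Cxcl13, which draws B cells into follicles, had a level of -6.17 ± 0.40 (SD, n = 4) in 1-week WT and was not above background on any of the 3 WT arrays of 4 weeks. It was at least 1.38-fold lower (fitted difference -2.71, limma adjusted p = 2.3e-05, and -0.54 with normexp). Cxcr6 fell from -3.80 ± 0.12 (SD, n = 4) to -6.50 ± 0.28 (SD, n = 3), a difference of -2.70 (SE 0.15, limma adjusted p = 2.6e-06). Cxcl12 fell from 1.27 ± 0.13 (SD, n = 4) to -1.10 ± 0.17 (SD, n = 3), a difference of -2.37 (SE 0.12, limma adjusted p = 1.7e-06), with -4.23 on its second probe. Its receptor Cxcr4 fell as well (-1.96, limma adjusted p = 0.00069), and by less on the Cxcr4 probe with a repeat score of 4 (-0.85, limma adjusted p = 0.0035). Cx3cl1 (-1.83), Cxcl14 (-1.50), Cx3cr1 (-1.05), Ccl2 (-0.92), Cxcl4 (-0.91), Cxcr3 (-0.74) and Cxcl16 (-0.54) were lower too; the call of Cxcl16 was lost without 4-week WT replicate 2 (-0.46) and with median scaling (-0.40), and that of Cxcr3 with quantile normalization (-0.55). Ccl7, a monocyte attractant, was at least 2.56-fold lower. The second Cx3cr1 probe differed by 0.47, so its probes disagree in direction with age. Cxcl1, at least 1.27-fold lower with overlapping groups, lost its call in 12 of 15 alternatives.

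**Figure D5:**
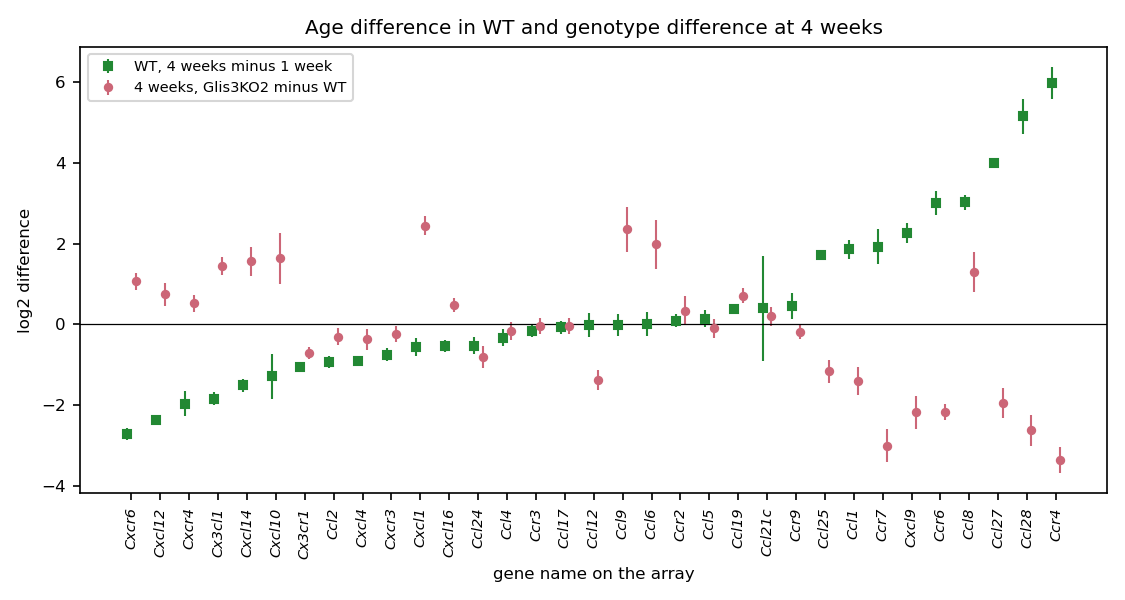
Log2 difference with its SE for the genes tested in both comparisons, except 1 that is not reported here: green squares give WT at 4 weeks minus WT at 1 week (n = 3 and 4), and red circles give Glis3KO2 minus WT at 4 weeks (n = 3 and 3), ordered by the first. Both use the same 3 4-week WT arrays, so the opposite directions of Ccr4 (5.96 and -3.34) or Cxcr6 (-2.70 and 1.06) are values side by side and not independent of each other.

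Because the comparison with age and the comparison of genotypes at 4 weeks share the 3 4-week WT arrays, their values are given side by side and no relation between them is tested. Ccr4 differed by 5.96 with age and -3.34 with genotype, Ccl28 by 5.15 and -2.62, Ccl27 by 4.00 and -1.94, Ccr6 by 3.00 and -2.16, Cxcl9 by 2.27 and -2.17 and Ccr7 by 1.93 and -2.99. Ccl8 rose in both, by 3.02 and 1.30. Cxcr6 differed by -2.70 and 1.06, Cx3cl1 by -1.83 and 1.44 and Cxcl14 by -1.50 and 1.56. Ccl9 and Ccl6 rose with genotype and differed by -0.01 and 0.01 with age.

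The fourth comparison asks whether the genotype difference itself changed between the ages. In 1 fit of all 14 arrays, the difference at 4 weeks minus that at 1 week passed for 21 of 40 genes tested, or 52.5%, with 4 higher and 17 lower. Of all 23762 genes tested 51.0% were called, 29.3% as higher and 21.6% as lower. The median was -0.67, against 0.24 over all genes, which median scaling moved to -0.09. With median scaling the split over all genes went from 6974 higher and 5135 lower to 4750 and 6535. The 4 with a more positive difference at 4 weeks were Cxcl1 (2.85, SE 0.38), Cxcr4 (1.60, SE 0.37), Cx3cl1 (0.90, SE 0.26) and Cxcr6 (0.59, SE 0.22). The call of Cx3cl1 was lost with median scaling (0.56, limma adjusted p = 0.164). The most negative were Ccl27 (-2.43, SE 0.40), Cxcl9 (-2.41, SE 0.85), Ccr7 (-2.21, SE 0.65), Ccl28 (-2.13, SE 0.56) and Ccr4 (-1.94, SE 0.54). At 1 week Ccr4 passed background on 2 of the 4 WT arrays and on none from Glis3KO2, and Cxcl1 was at background in 4-week WT, so both values rest in part on background. So does that of Ccr7, which passed background on 1 of 4 1-week and 1 of 3 4-week Glis3KO2 arrays. With normexp its call was lost (-0.74, limma adjusted p = 0.103). The calls of Cxcr6, Ccl7, Ccl1 and Cxcl9 were lost in 17, 15, 14 and 12 of 24 alternatives.

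Several genes passed here although they had not passed at either age alone. Ccl17 had a difference of 1.66 at 1 week and -0.04 at 4 weeks, Cxcr3 of 0.91 and -0.24, Cxcl4, or platelet factor 4, of 0.75 and -0.37, and Ccl7 of 0.16 at 1 week with no test at 4 weeks. The differences of these effects were -1.70 for Ccl17, -1.15 for Cxcr3, -1.11 for Cxcl4 and -1.20 for Ccl7. The Cxcl4 probe has a repeat score of 7, and the array has no second probe for it. Its call was lost with slide as a block (-1.005, limma adjusted p = 0.0634) and without 4-week Glis3KO2 replicate 1 (-0.85, limma adjusted p = 0.0618). At 4 weeks Ccl7 was above background on 0 of 3 WT arrays and 1 of 3 Glis3KO2 arrays, so its value rests in part on background. With normexp the Ccl7 value was -0.06 (limma adjusted p = 0.90). On the 1-week arrays Ccl17 was at -2.90 and -3.40 in Glis3KO2 replicates 1 and 2 and at -1.36 and -1.21 in replicates 3 and 4, against -4.07 to -3.66 in WT. Of 25 alternatives 12 ended its call, and 9 of these left out a single array, with values from -1.75 to -1.36 without Glis3KO2 replicate 4 at 1 week. For Ccl19 the fitted value was -1.37, and 0.18 (limma adjusted p = 0.66) with the probe that does not match the repeat. The Cxcr4 value was 1.60 and, with its second probe, 0.98 (limma adjusted p = 0.0056).

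Read by ligand and receptor, the pairs named here, which are not all those possible, showed no common direction at 4 weeks. Cxcl12 (0.75) and its receptor Cxcr4 (0.52) both had positive differences that did not pass. Cx3cl1 rose (1.44) and its receptor Cx3cr1 fell (-0.71). Cxcl16 (0.48) and its receptor Cxcr6 (1.06) both rose. Ccr4 fell (-3.34) while its ligand Ccl17 did not pass (-0.04) and Ccl22 was not tested. Ccr7 fell (-2.99), its ligand Ccl19 rose (0.71) and its ligand Ccl21c did not pass (0.20). Ccr6 fell (-2.16), and its ligand Ccl20 was at background on all arrays. Ccl25 fell on its brightest probe (-1.16), and its receptor Ccr9 did not pass (-0.18). Cxcl9 fell (-2.17), and its receptor Cxcr3 did not pass (-0.24).

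By place in the genome, some neighbours went the same way at 4 weeks and others did not, and the part of position was not tested. Positions are those of the probes on build mm7 as the files give them; the files do not say whether a probe lies in an exon or a UTR. On chromosome 11 a first group of genes runs from Ccl2 (82118723 to 82118782) to Ccl1 (82258409 to 82258468) and holds Ccl7, Ccl11, Ccl12 and Ccl8 between them; at 4 weeks Ccl8 rose and Ccl12 and Ccl1 fell. A second group runs from Ccl5 (83595699 to 83595758) to Ccl4 (83734455 to 83734514), and of its 5 genes Ccl9, Ccl6 and Ccl3 rose and Ccl5 and Ccl4 did not pass. On chromosome 5 the CXC ligands from Cxcl5 (90732453 to 90732512) to Cxcl11 (92348344 to 92348495) include Cxcl1 (90882059 to 90882118), which rose, Cxcl9 (92310412 to 92310471), which fell, Cxcl4 and Cxcl10, which did not pass, and Cxcl2, Cxcl5, Cxcl7, Cxcl11 and Cxcl15, which were not tested. Ccr4 lies on chromosome 9 (114142769 to 114142828), Ccr7 on chromosome 11 (99253592 to 99253652), Cx3cl1 on chromosome 8 (93371329 to 93371388) and Ccl27 on chromosome 4 (41908195 to 41908254). The probes of Ccl28, Ccl19 and Ccl21c are placed on unassembled sequence in that build, and that of Ccr6 on sequence assigned to chromosome 17 without a position.

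Other genes of the chemokine system were read against the 69.2% of all genes called at 4 weeks. Of 11 tested genes for atypical chemokines, scavenging receptors and related factors, 4 rose and 1 fell, a share below that background, with a median of 0.46. The cytokine Mif (1.80, SE 0.21), the chemerin-binding receptor Ccrl2 (1.47), chemerin itself (Rarres2, 1.24) and the Cxcl12 scavenger Ackr3 (0.46) rose, and the XC ligand Xcl1 fell (-1.10). In WT 11 of 12 were called as lower at 4 weeks than at 1 week, against 49.7% of all genes tested with age. Between genotypes at 1 week 0 of 12 were called in either direction, against 10.0% of all genes tested. The smallest limma adjusted p at 1 week was 0.0624, for Rarres2, and 2 had an unadjusted limma p under 0.05. Of 19 tested genes that carry signals from chemokine receptors, 13 rose and 5 fell, with a median of 0.96. The regulator of G protein signalling Rgs2 (2.60), the adaptor Elmo1 (1.95) and the kinases Jak2 (1.90) and Grk6 (1.57) were among those that rose. At 1 week 2 of 22 rose and 1 fell. The phospholipase Plcb2 (-2.72), the exchange factors Vav1 (-2.03) and Dock2 (-1.55), the kinase Grk3 (-1.89) and the GTPase Rac2 (-0.70) fell.

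Of 17 tested inflammatory cytokines and NF-kB or interferon response genes 10 rose and 4 fell at 4 weeks, with a median of 0.95. The NF-kB subunit Nfkb1 (2.55), the NF-kB inhibitor Nfkbia (1.94) and Irf1 (1.89) rose. The cytokine Il1b (-1.85) and the interferon-induced Ifit1 (at background on 3 of 3 Glis3KO2 arrays), Ifit3 (-1.21) and Isg15 (-0.91) fell. Il6 and Ifnb1 were above background on 0 of 14 arrays. At 1 week 3 of 20 rose and 2 fell. These counts sit beside a background of 69.2% called over all genes at 4 weeks and 10.0% at 1 week.

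Values for markers of leukocytes and of testis cells are given beside those of the chemokine genes. Over all genes tested 69.2% were called at 4 weeks and 10.0% at 1 week, the latter split into 3.90% higher and 6.14% lower. The part of these markers in the results was not tested. Of 14 macrophage markers, each above background on at least 2 arrays of every group, 10 rose and 2 fell at 4 weeks, with a median of 0.94. Cd163 rose (2.33), the scavenger receptor Msr1 (-1.43) and the Fc receptor Fcgr1 (-0.82) fell, and Adgre1, which encodes a macrophage surface receptor, had a difference of 0.02 and did not pass. The mean log2 signal of the list was -1.56 to -1.26 on the WT arrays and -0.94 to -0.49 on the Glis3KO2 arrays at 4 weeks, and -1.90 to -1.56 and -1.40 to -0.95 at 1 week, where 4 of 14 rose and 0 fell. Of 8 tested T cell markers 2 fell at 4 weeks, Cd3d (-2.36) and Cd4 (-0.51), and 0 rose, with list means of -4.11 to -3.79 in WT and -4.56 to -4.21 in Glis3KO2. Cd3e (0.26) and Cd8a (-0.25) did not pass. Of 6 tested B cell markers 1 rose and 2 fell, of 4 neutrophil markers 1 rose and 1 fell, and of 3 dendritic cell markers 1 rose and 1 fell. Of 2 tested NK cell markers 1 rose, and of 4 mast cell markers 0 changed (limma; 0 also at an unadjusted p under 0.05). At 1 week the mast cell list had a median of 1.37 with 0 of 6 called (limma), although 4 had an unadjusted p under 0.05.

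Germ cell and somatic markers were called at 4 weeks as well. All 9 spermatocyte and spermatid markers fell, with a median of -2.51, and their mean was 5.47 to 5.77 on the WT arrays and 2.67 to 3.66 on the Glis3KO2 arrays; in WT they had risen from 1 week by a median of 9.64. Of 9 Sertoli cell markers 8 rose (median 2.09), of 5 peritubular myoid markers 4 rose (median 1.23), of 8 endothelial markers 4 rose (median 0.77), of 4 lymphatic endothelial markers 2 rose and 1 fell, and of 7 Leydig cell markers 1 rose and 3 fell. Of 6 markers of germ cells in general 4 fell at 4 weeks (median -1.50), and 3 at 1 week (median -1.45). Undifferentiated spermatogonia markers, the cells in which Cxcr4 is known, had a mean of -2.07 to -1.93 on the 1-week WT arrays and -4.66 to -3.15 on the 1-week Glis3KO2 arrays, with 7 of 9 lower (median -2.17), beside the Cxcr4 difference of -1.07. At 4 weeks 2 of 8 tested undifferentiated spermatogonia markers rose and 2 fell, with a median of -0.17. At 1 week, beside the chemokine genes that rose then, 4 of 7 Leydig cell markers, 3 of 9 Sertoli cell markers and 2 of 3 tested adipose markers, Fabp4 (1.72) and Plin1 (0.785), rose, and 0 of each list fell. Over all genes tested at 1 week 3.90% were called as higher and 6.14% as lower. The epididymis marker Crisp1 varied widely in 1-week Glis3KO2 (-3.94 ± 4.18, SD, n = 4, above background on 2 of 4 arrays). Of other tissues, 1 of 4 adipose markers and 3 of 6 epididymis markers fell at 4 weeks, and 0 of 4 erythroid markers changed (limma; 0 also at an unadjusted p under 0.05).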

How the data were processed

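Testis RNA of 14 samples was measured on single-colour Agilent arrays (45018 spots, 60-base probes). The authors deposited scanner output of Agilent Feature Extraction 9.5, named per the file headers, with intensity values per spot: a processed intensity with background and within-array trends removed, and mean and background intensities, with no scaling between arrays. The deposited series table holds the same processed intensity, equal in 630252 of 630252 values. From these deposited intensities, log2 values were computed here, each array's 75th percentile over its non-control probes being subtracted, without non-uniform spots and with spots of a probe averaged. The brightest probe stood for a gene name. Genes needed 3 arrays of a group well above background to be tested. limma 3.58.1 in R 4.3.3 was fitted on the whole table, per age, for WT between ages, and for the difference of genotype effects; the procedure was tested on simulated data. Glis3 was also compared by an exact permutation test (1 week p = 0.0286, the smallest possible; 4 weeks p = 0.3, smallest 0.1). A fold against a group wholly at background is given as "at least". The values of 1 of the 49 genes and of 1 listed gene are not reported here; counts and medians include them. Slides and scan days come from the scanner headers. Current names came through accession (23082 probes), symbol (6582) or synonym (3073), and 8437 probes stayed under the array's own name. Genes named are those called between genotypes at 1 week, the 12 with the smallest p at 4 weeks, those called with age alone, further called or uncalled genes as examples, and up to 4 or 5 of each list.

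The genes and the lists of markers were chosen with earlier results of these data known. Alternatives were median scaling, quantile normalization, normexp (offset 50), no filter, a filter on every array, averaging the probes of a gene, a single fit over the 14 arrays, replicate and slide blocks, an intensity trend with robust moderation, leaving out each array, and leaving out probes that match the telomeric repeat (best ungapped match to CCCTAA on either strand, 1 per match and -1 per mismatch). Leaving out both 1-week arrays numbered 4, and slide as a random block for WT between ages, were chosen after seeing the data. Python 3.11.15 was used for tables and plots, with numpy 2.4.6, pandas 2.3.3 and matplotlib 3.10.9.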

Additional observations from a re-analysis of the deposited data

Results flagged for a closer look

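In 72 groups of 4 arrays, 1 for each gene and 1-week genotype tested, 4 arrays stood apart from the other 3 of their group, which is about the 5% that chance gives. In 1-week WT, Ccl21c was at -4.34 on replicate 1 against 0.09 to 0.92 on the others, and Ccl2 at -3.90 on the same replicate against -3.39 to -3.38. Ccl19 was at -1.05 on replicate 2 against -0.80 to -0.78, and Ccr10 at -8.52 on replicate 4 against -7.13 to -6.95.

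The genotype difference at 4 weeks differed from that at 1 week, by the test of that difference in limma, for 21 genes. It was more positive at 4 weeks for Cxcl1 (2.85), Cxcr4 (1.60), Cx3cl1 (0.90) and Cxcr6 (0.59). It was more negative for Ccl27 (-2.43), Cxcl9 (-2.41), Ccr7 (-2.21), Ccl28 (-2.13), Ccr4 (-1.94), Ccl12 (-1.80), Ccl17 (-1.70), Ccr6 (-1.65), Ccl24 (-1.61), Ccl25 (-1.38), Ccl19 (-1.37), Ccl7 (-1.20), Cxcr3 (-1.15), Ccl1 (-1.12), Cxcl4 (-1.11), Ccl4 (-0.95) and Cx3cr1 (-0.79). Of these, Ccl24, Ccl27, Ccl28, Ccr4, Ccr6, Cxcl1 and Cxcr4 kept their call in every alternative run for them. The 3 Ccl25 probes gave -1.38, -0.98 and 1.05, and their mean gave -0.43 with no call (limma adjusted p = 0.0779).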

How the results depend on the processing

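The calls at 1 week depended on the processing. The count of 6 chemokine and receptor genes was 15 with median scaling, 11 with quantile normalization, 11 with the filter on every array, 10 with an intensity trend, and 1 without a filter, with slide as a block, with a replicate block or without both arrays numbered 4; leaving out 1 array gave 1 to 9. Over all genes the 1-week count of 2277 (885 higher and 1392 lower) was 3899 (2886 and 1013) with median scaling, 3865 in 1 fit of all arrays, 3872 with an intensity trend, 958 without a filter, 502 with slide as a block and 391 with a replicate block, and 279 to 3535 leaving out 1 array; it was split 1442 and 1288 with quantile normalization and 1018 and 956 with normexp. At 4 weeks the count of 21 was 16 to 23 under every alternative, 18 with normexp (12 higher and 6 lower), and 20 with a replicate block. With age it was 16 to 24 against 23. For the difference of effects it was 12 with normexp and 14 to 23 otherwise, against 21; over all genes its split of 6974 higher and 5135 lower became 4750 and 6535 with median scaling. Glis3 at 1 week was -0.46 (limma adjusted p = 0.205) with normexp and -3.42 to -2.77 leaving out 1 array. The value for Ccl19 in the difference of effects changed sign to 0.18 without probes that match the repeat; no other call of these genes changed sign. Deviations of same-numbered arrays correlated at -0.17, -0.13, 0.02 and 0.16 at 1 week and at 0.14, -0.31 and 0.07 at 4 weeks. Between differently numbered arrays the correlations ran from -0.358 to 0.445 at 1 week and from -0.308 to 0.328 at 4 weeks. With so few arrays these values cannot tell whether the numbers pair the samples. Signal over background limits Cxcl1, Ccl3, Ccr7, Cxcl9 and Cxcl13, each at or near background in 1 or more groups.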

Other observations

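3 chemokine receptors are on the array under older names and so fall outside the rule for the genes above; they were looked up after the other values were seen. Blr1, now Cxcr5, the receptor of Cxcl13 on B cells, was above background on 3 of 3 4-week WT arrays (-3.41 ± 0.11, SD, n = 3) and 3 of 3 4-week Glis3KO2 arrays (-5.06 ± 0.73, SD, n = 3), a difference of -1.65 (SE 0.35, limma adjusted p = 0.0052). In WT it rose by 3.05 (SE 0.15, limma adjusted p = 1.6e-06) from 1 week, while its ligand Cxcl13 was at background at 4 weeks. Il8ra, now Cxcr1, and Il8rb, now Cxcr2 and the receptor of Cxcl1, were above background on at most 2 arrays of any group and were not tested.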
